A study of Homo sapiens with 8 samples.

Results

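The mitochondrial ribosomal protein genes are the nuclear genes whose symbols are MRPL or MRPS followed by a number and at most one letter. The annotation of GRCh38.p14 held 77 such genes, pseudogenes apart, and 76 of them, all but MRPL42, had a probe on the arrays, of 19056 genes named in all. By symbol 48 belonged to the large subunit (MRPL) and 28 to the small subunit (MRPS). All 76 were called well above background by the scanner software on all 8 arrays, as were 11493 of the 19056 genes.

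The arrays came from A549, an established human lung carcinoma cell line, treated in 2 series of 4 one-colour arrays each. One series held a vehicle control and cells given 1.25, 5 or 20 μg/mL of EEDS, an ethanol extract of the seeds of Descurainia sophia. The other held its own vehicle control and cells given 3.75, 15 or 60 nM of helveticoside, a cardiac glycoside isolated from that extract. Each array carried RNA pooled from 3 cultures, each dose had 1 array, and the exposure was 48 h in the sample labels and 24 h in the methods.

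Mitochondria keep their own ribosome, which reads only the few messages of mitochondrial DNA, and these encode core subunits of the respiratory chain. All proteins of this ribosome are made from nuclear genes and imported, so its assembly needs many nuclear transcripts. Part of its proteins descend from those of bacterial ribosomes, and the rest were added later and have no bacterial counterpart. Many promoters of these genes are known for short sites of ETS family factors, which include GABP, and for sites of NRF1 and YY1.

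The promoter letters of 4 genes whose signal fell along the EEDS doses, as described further on, show what such sites look like. The windows are the 250 bases before the RefSeq transcription start in GRCh38.p14, read 5′ to 3′ on the strand of the gene, and none of them overlapped another gene. MRPS26 lies on the plus strand (chr20:3045802-3046051), MRPL40 on the plus strand (chr22:19432295-19432544), MRPL20 on the minus strand (chr1:1407294-1407543) and MRPL58 on the plus strand (chr17:75012420-75012669). Capitals mark the ETS core CCGGAAG or its other strand CTTCCGG.
MRPS26: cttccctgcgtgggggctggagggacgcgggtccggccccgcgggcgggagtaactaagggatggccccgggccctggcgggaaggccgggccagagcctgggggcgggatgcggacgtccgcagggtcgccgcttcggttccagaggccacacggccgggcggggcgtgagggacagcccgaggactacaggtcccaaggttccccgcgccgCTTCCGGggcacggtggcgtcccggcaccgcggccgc
MRPL40: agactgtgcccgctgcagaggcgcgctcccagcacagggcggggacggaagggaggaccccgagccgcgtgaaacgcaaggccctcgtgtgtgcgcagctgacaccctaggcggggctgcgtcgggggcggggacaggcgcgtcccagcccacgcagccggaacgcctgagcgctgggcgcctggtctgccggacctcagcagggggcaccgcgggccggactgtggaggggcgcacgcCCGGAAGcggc
MRPL20: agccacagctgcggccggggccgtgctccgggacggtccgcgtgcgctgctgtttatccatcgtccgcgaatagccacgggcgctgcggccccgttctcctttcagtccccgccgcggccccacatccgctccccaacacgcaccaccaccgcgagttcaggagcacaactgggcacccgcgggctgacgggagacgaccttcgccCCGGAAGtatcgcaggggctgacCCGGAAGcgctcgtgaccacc
MRPL58: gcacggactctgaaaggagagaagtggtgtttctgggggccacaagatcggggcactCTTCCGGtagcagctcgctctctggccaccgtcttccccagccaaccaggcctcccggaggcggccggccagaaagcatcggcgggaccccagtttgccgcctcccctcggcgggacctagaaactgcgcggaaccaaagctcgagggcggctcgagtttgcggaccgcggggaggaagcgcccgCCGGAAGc
The core began 37 bases before the start in MRPS26 and 11 bases before it in MRPL40, at position -44 and again at -21 in MRPL20, and at -193 and -8 in MRPL58. The windows of MRPS34 and MRPL49 overlapped the neighbouring genes EME2 and FAU and are not printed. That of MRPS34 held the ETS core at positions -71, -29 and -19, and the first of 2 windows of MRPL49 held none.

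RefSeq windows were found for 68 of the 76 genes, with 84 windows in all because some genes have several starts. The ETS core stood on one strand or the other in 27 of these windows (32.1%), against 10.7% of the 22199 windows of protein-coding genes and 8.52% of all 35116 windows. Among the cytosolic ribosomal proteins it stood in 24 of 79 windows (30.4%). The NRF1 core, GCGCA followed by any base and GCGC, stood on either strand in 10 of the 84 windows (11.9%), against 6.56% for protein-coding genes and 5.07% of all windows. The YY1 core AAGATGGC, or GCCATCTT, stood in 7 (8.33%), against 1.38% and 1.36%, and the E-box CACGTG in 8 (9.52%), against 7.37% and 6.34%. The 4 printed windows held none of these other motifs. The median GC content of the 84 windows was 61%, that of protein-coding genes 62% and that of all windows 58%. It was 67.6% over the windows of the genes called falling and 59.2% over those of the other members. Of the 19 windows of genes called falling with either agent below, 7 held the ETS core (36.8%), against 20 of the 65 windows of the other members (30.8%). None of these 19 windows held the YY1 core or the E-box. A match of letters is a description and does not show that a factor was bound.

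The value of a gene was the log2 quantile-normalized signal of its brightest probe, and a log2 ratio compares a treated array with the vehicle control of its own series. With 1 array per dose there is no replicate error and no test at any single dose. The test was a limma trend: a slope per dose step, from control through the lowest and middle to the top dose, fitted over all 8 arrays with 4 residual degrees of freedom and adjusted by the Benjamini-Hochberg procedure over all genes of the series. Genes past an adjusted p of 0.05 are said to have fallen or risen. Normalized values are relative to the other genes of an array, so a change in the total RNA of the cells is not seen. Each array carried RNA of whole cultures, so less of a message in every cell and fewer cells that make it cannot be told apart.

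Over the whole arrays, 54.5% to 64.9% of probes were well above background, with the helveticoside series at 59.5% or less and the EEDS series at 63.3% or more. No spot was saturated. The epithelial markers KRT8, KRT18, EPCAM and CDH1 were well above background on all 8 arrays. The vehicle controls of the series differed by a median of -0.11 (log2, helveticoside minus EEDS control) over the 76 genes with an SD of 0.25. Only 1 of the 76 was over 1.5-fold higher on the helveticoside control (MRPL57) and 1 was over 1.5-fold lower. Series and agent cannot be told apart.

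Along the EEDS doses 17 of the 76 genes fell (22.4%) and 1 rose, MRPL49 (1.32%). Of all 19046 genes tested 7.86% fell and 7.27% rose, and among those called well above background on each of the 8 arrays 10.7% fell and 10.2% rose. Along the helveticoside doses 10 genes fell (13.2%) and MRPL49 again was the 1 that rose, against 5.79% and 5.46% of all 19056 genes tested and 7.62% and 7.57% of those well above background. The falling calls were 9 in common, and 18 genes fell with at least 1 agent. This overlap was not counted over all genes, so it cannot be read as particular to the 76. Slopes were below 0 for 53 genes with EEDS and 54 with helveticoside, and the share of all genes with such slopes was not computed.

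**Figure D1:**
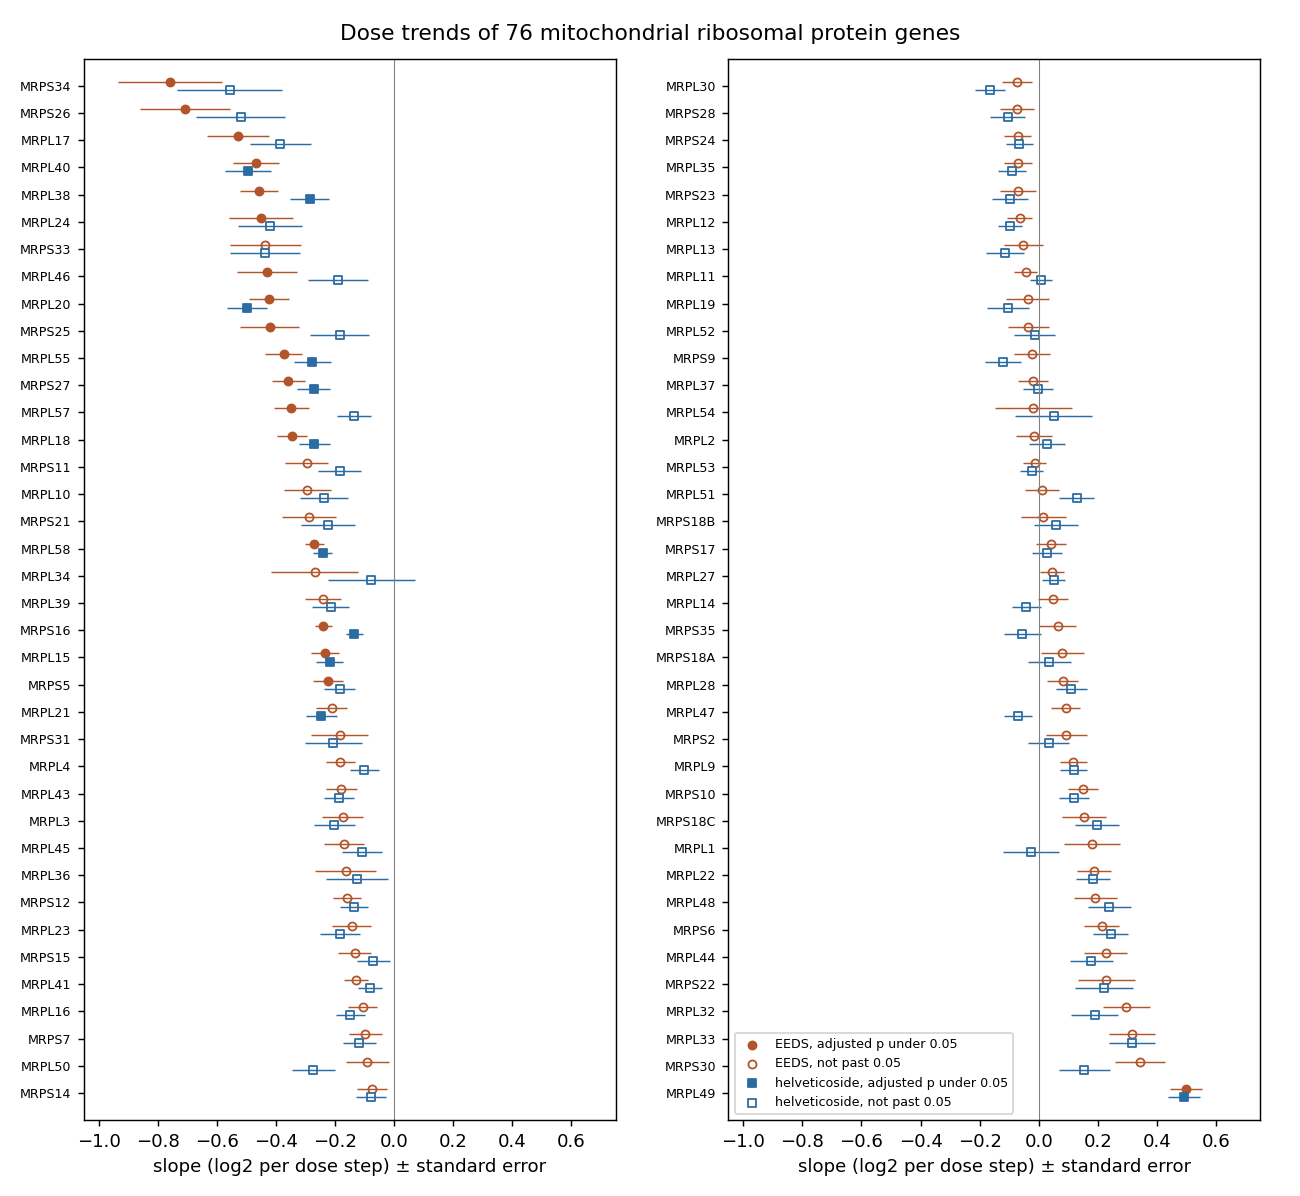
Dose trends of all 76 genes, ordered by the EEDS slope from the lowest (top left) to the highest (bottom right). The x axis is the slope in log2 units per dose step, circles are EEDS and squares helveticoside, bars are standard errors of the limma fit, and filled symbols have an adjusted p under 0.05. Slopes ran from -0.76 (MRPS34) to 0.50 (MRPL49) with EEDS and from -0.56 to 0.49 with helveticoside. Most lie left of 0 with the quantile normalization used here.

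These counts depended on the scaling of the arrays. When the 75th percentile of each array set the scale instead, the EEDS split of 17 falling and 1 rising became 10 falling and 8 rising, and the helveticoside split of 10 and 1 became 2 and 6. The falling shares were then 13.2% with EEDS, against 11.5% of all genes and 12.8% of those well above background, and 2.63% with helveticoside, against 6.44% and 7.26%. The rising shares were 10.5% with EEDS, against 9.49% and 14.2%, and 7.89% with helveticoside, against 6.58% and 9.94%. The median slopes of the 76 genes with EEDS and helveticoside moved from -0.075 and -0.103 to -0.019 and -0.015. Those of all genes moved from 0.007 and -0.006 to -0.105 and -0.057, so the lean below 0 also depended on the scaling. All 10 EEDS fallers under this scaling were among the 17: MRPL17, MRPL20, MRPL38, MRPL40, MRPL46, MRPL57, MRPS25, MRPS26, MRPS27 and MRPS34. MRPL20 and MRPL40 fell and MRPL49 rose with both agents under both scalings.

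The counts also depended on single arrays. The members called falling with EEDS numbered 0 without the EEDS vehicle control or without 20 μg/mL EEDS, and 5 without 15 nM helveticoside. They numbered 9 without 1.25 μg/mL EEDS (8 of them among the 17) and 10 without 3.75 or without 60 nM helveticoside. Without the helveticoside control they numbered 13, and without 5 μg/mL EEDS 14. Those called falling with helveticoside numbered 0 without 15 or without 60 nM helveticoside, 1 without its control, 2 without 5 μg/mL EEDS, 3 without 1.25 or 20 μg/mL EEDS or 3.75 nM helveticoside, and 4 without the EEDS control. Each such fit has fewer arrays and residual degrees of freedom, and at an unadjusted p under 0.05 the fits named as calling 0 still held 11 to 26 falling genes with EEDS and 10 to 26 with helveticoside. Shares of all genes called were not computed for these fits. A loss of calls particular to the members cannot be told apart from one over all genes.

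At single doses the genes below control outnumbered those above it. At 20 μg/mL EEDS 26 of the 76 were over 1.5-fold lower (34.2%) and 7 over 1.5-fold higher (9.21%), against 23.2% and 23.1% of all genes and 27% and 25.7% of genes well above background. At 60 nM helveticoside 21 were over 1.5-fold lower (27.6%) and 7 higher (9.21%), against 20.3% and 20.5% of all genes and 23% and 21.9% of those well above background. Past 2-fold at 20 μg/mL EEDS stood 14 lower (18.4%) and 1 higher (1.32%), against 14.5% and 13.3% of all genes and 16.2% and 14.3% of those well above background. Past 2-fold at 60 nM helveticoside stood 7 lower (9.21%) and 1 higher (1.32%), against 12.8% and 10.8% of all genes and 13.3% and 10.9% of those well above background. The share lower was above that of all genes except past 2-fold with helveticoside, and the share higher was below that of all genes in each case.

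Fewer genes stood past 1.5-fold at the smaller doses. At 5 μg/mL EEDS 11 were over 1.5-fold lower (14.5%) and 4 higher (5.26%), against 17% and 16.3% of all genes and 17.7% and 17.9% of those well above background. At 15 nM helveticoside 7 were lower (9.21%) and 3 higher (3.95%), against 16.1% and 14.8% of all genes and 15.8% and 14.5% of those well above background. At the lowest doses 2 genes were over 1.5-fold lower with each agent (2.63%) and 0 higher, against 11.3% and 11.9% of all genes with 1.25 μg/mL EEDS and 9.7% and 7.33% with 3.75 nM helveticoside. Among genes well above background these shares were 10.6% and 12.3% with EEDS and 5.9% and 5.02% with helveticoside. The SD of the log2 ratio over the 76 genes grew from 0.29 to 0.43 and 0.73 along the EEDS doses and from 0.20 to 0.35 and 0.59 along those of helveticoside.

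The median log2 ratio of the 76 genes was -0.05, -0.11 and -0.24 at the 3 EEDS doses and -0.03, -0.15 and -0.30 at the 3 helveticoside doses. Over all genes it was 0.01, 0.01 and 0.02 with EEDS and 0.01, -0.04 and -0.00 with helveticoside. With 75th-percentile scaling the medians at the top doses were -0.13 and -0.04, the all-gene median moved by -0.38 with EEDS and -0.18 with helveticoside, to -0.36 and -0.18, and the 76 genes then lay above it. Against the median of genes well above background, which was -0.01 and 0.02 with quantile normalization and -0.04 and 0.06 with the other scaling, the 76 genes lay lower under both.

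**Figure D2:**
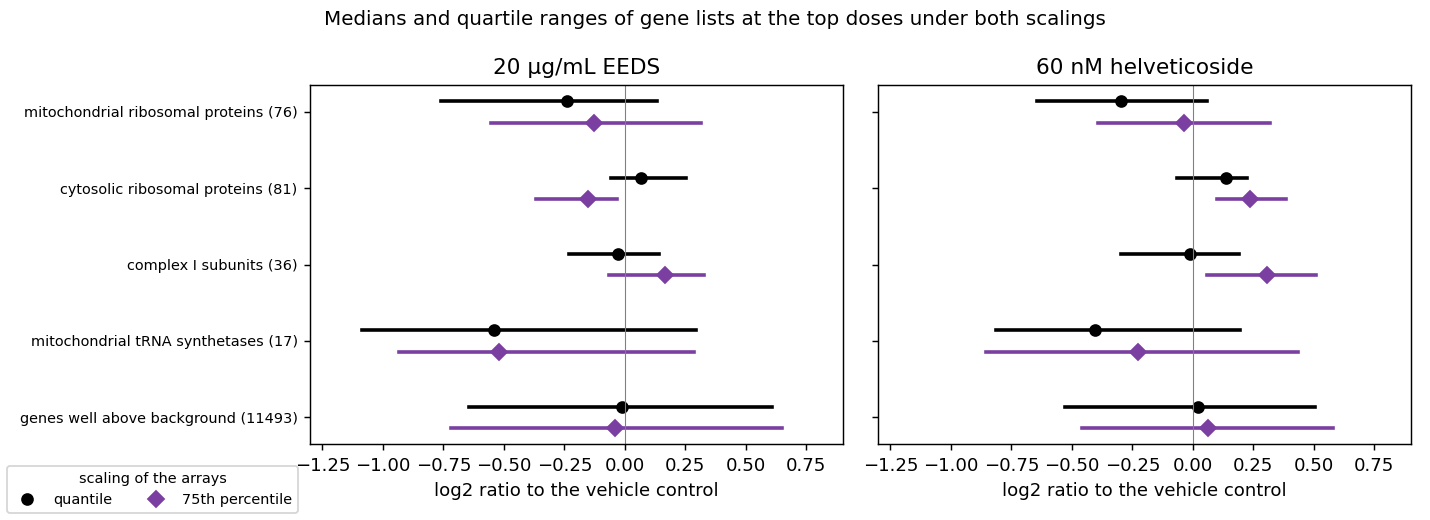
Medians (symbols) and ranges between the quartiles (bars) of log2 ratios to the vehicle control at 20 μg/mL EEDS (left) and 60 nM helveticoside (right), for 5 gene lists with the number of genes in parentheses. Black circles are quantile-normalized values and purple diamonds values scaled to the 75th percentile. The medians of the mitochondrial ribosomal proteins were -0.24 and -0.30 with quantile normalization and -0.13 and -0.04 with the other scaling.

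By symbol 11 of 48 large subunit genes (22.9%) and 6 of 28 small subunit genes (21.4%) fell with EEDS, and 8 (16.7%) and 2 (7.14%) with helveticoside. Beside these and the next shares stand the 7.86% and 5.79% of all genes that fell with EEDS and helveticoside, and the 10.7% and 7.62% of those well above background. Of the 47 members with a bacterial counterpart 7 fell with EEDS (14.9%) and 5 with helveticoside (10.6%). Of the 29 without one 10 fell with EEDS (34.5%) and 5 with helveticoside (17.2%), and MRPL49, the member that rose, is also among these. The median log2 ratio at the top EEDS dose was -0.20 for members with a counterpart and -0.48 for those without, and at the top helveticoside dose -0.27 and -0.47. With 75th-percentile scaling these medians were -0.01 and -0.24 with EEDS and -0.02 and -0.25 with helveticoside. Under that scaling 2 and 8 members fell with EEDS and 1 and 1 with helveticoside. Those that rose numbered 4 and 4 with EEDS and 4 and 2 with helveticoside. Of all genes 11.5% then fell and 9.49% rose with EEDS, and 6.44% fell and 6.58% rose with helveticoside. Among genes well above background these shares were 12.8% and 14.2% with EEDS and 7.26% and 9.94% with helveticoside. Differences between these groups of members were not tested.

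MRPL40, a protein of the central protuberance, the crown of the large subunit, read 11.54, 11.01, 10.66 and 10.10 (log2 signal) on the EEDS arrays from control to top dose and 11.44, 11.40, 10.67 and 10.04 on the helveticoside arrays. Its signal was lower at every dose than at the one before with both agents. The log2 ratios at the top doses were -1.44 and -1.40, or 2.70-fold and 2.65-fold lower. The slopes were -0.47 ± 0.08 (SE) with EEDS (adjusted p = 0.0226) and -0.50 ± 0.08 with helveticoside (adjusted p = 0.0253).

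MRPL38, MRPL46 and MRPL18 belong to the same crown. MRPL38 read 11.20, 10.65, 10.48 and 9.73 with EEDS and 10.68, 10.29, 10.18 and 9.77 with helveticoside, and fell with both (slopes -0.46 and -0.29, adjusted p = 0.0174 and 0.0489). MRPL18 read 13.71, 13.35, 12.99 and 12.68 with EEDS and 13.59, 13.51, 12.96 and 12.87 with helveticoside, and it too fell with both (slopes -0.35 and -0.27, adjusted p = 0.0190 and 0.0354). MRPL46 read 12.07, 11.26, 11.26 and 10.64 with EEDS and fell (slope -0.43, adjusted p = 0.0455). On the helveticoside arrays MRPL46 read 11.92, 11.30, 11.56 and 11.20, which was lower than control at each dose without a steady course (slope -0.19, adjusted p = 0.286). The slopes of MRPL46 with the 2 agents were not shown to differ (difference 0.24, unadjusted p = 0.148). The crown proteins MRPL48, MRPL27 and MRPL35 did not pass with either agent. MRPL48 had log2 ratios of 0.51 and 0.69 at the top doses (adjusted p = 0.132 and 0.0951), MRPL27 of 0.13 and 0.13 (adjusted p = 0.517 and 0.487) and MRPL35 of -0.24 and -0.26 (adjusted p = 0.373 and 0.269).

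MRPL20, kin of a bacterial protein that binds the large ribosomal RNA early in assembly, read 13.77, 13.13, 12.77 and 12.48 with EEDS and 13.74, 13.53, 12.70 and 12.36 with helveticoside. It was already 1.56-fold lower at 1.25 μg/mL EEDS and 2.06-fold lower at 15 nM helveticoside. Its slopes were -0.42 ± 0.07 (adjusted p = 0.0208) and -0.50 ± 0.07 (adjusted p = 0.0205). At the top doses it stood 2.45-fold and 2.61-fold below control.

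MRPL58 is a peptidyl-tRNA hydrolase that frees stalled ribosomes and is also built into the large subunit. It read 14.65, 14.42, 14.11 and 13.85 with EEDS and 14.53, 14.32, 14.07 and 13.81 with helveticoside, an almost even step at each dose in both series. The slopes were small, -0.27 ± 0.03 with EEDS and -0.24 ± 0.03 with helveticoside, and passed with adjusted p = 0.0140 and 0.0194. With 75th-percentile scaling neither passed (slopes -0.17 and -0.14, adjusted p = 0.0890 and 0.212). MRPL15, kin of the bacterial protein of the same number, behaved alike in size, 1.68-fold and 1.61-fold lower at the top doses (adjusted p = 0.0310 and 0.0421), and was also lost under that scaling (adjusted p = 0.204 and 0.299).

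MRPL17, MRPL22, MRPL23 and MRPL24 lie around the exit of the tunnel through which the new chain leaves. MRPL17 read 12.61, 12.23, 11.95 and 10.94 with EEDS, fell with a slope of -0.53 ± 0.10 (adjusted p = 0.0312) and was 3.18-fold below control at the top dose. With helveticoside it read 12.33, 12.22, 11.95 and 11.14 and did not pass (slope -0.38, adjusted p = 0.0733). MRPL24 went from 13.92 to 12.59 with EEDS and from 13.62 to 12.38 with helveticoside, and passed with EEDS alone (adjusted p = 0.0486 and 0.0652). MRPL22 stood above control, at log2 ratios of 0.54 and 0.53 at the top doses (adjusted p = 0.0839 and 0.103), and rose with both agents under 75th-percentile scaling. MRPL23 stood at -0.42 and -0.48 (adjusted p = 0.205 and 0.139). For MRPL17 and MRPL24 the largest step lay between the middle and the top dose. The difference between the agents' slopes was 0.14 for MRPL17 and 0.03 for MRPL24, with unadjusted p = 0.370 and 0.864.

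Of the other large subunit genes, MRPL55 and MRPL57 fell with EEDS, MRPL55 and MRPL21 with helveticoside. MRPL55 had log2 ratios of -1.16 and -0.85 at the top doses (adjusted p = 0.0229 and 0.0497). MRPL21 was 1.64-fold and 1.66-fold below control (adjusted p = 0.0543 and 0.0454). MRPL57 read 11.35, 10.84, 10.70 and 10.24 with EEDS and 12.08, 11.90, 11.96 and 11.61 with helveticoside. All its helveticoside arrays, the control included, stood above all its EEDS arrays, so the series themselves differed in this gene. Calls that 75th-percentile scaling removed were those of MRPL15, MRPL18, MRPL24, MRPL55 and MRPL58 among the large subunit genes with EEDS.

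**Figure D3:**
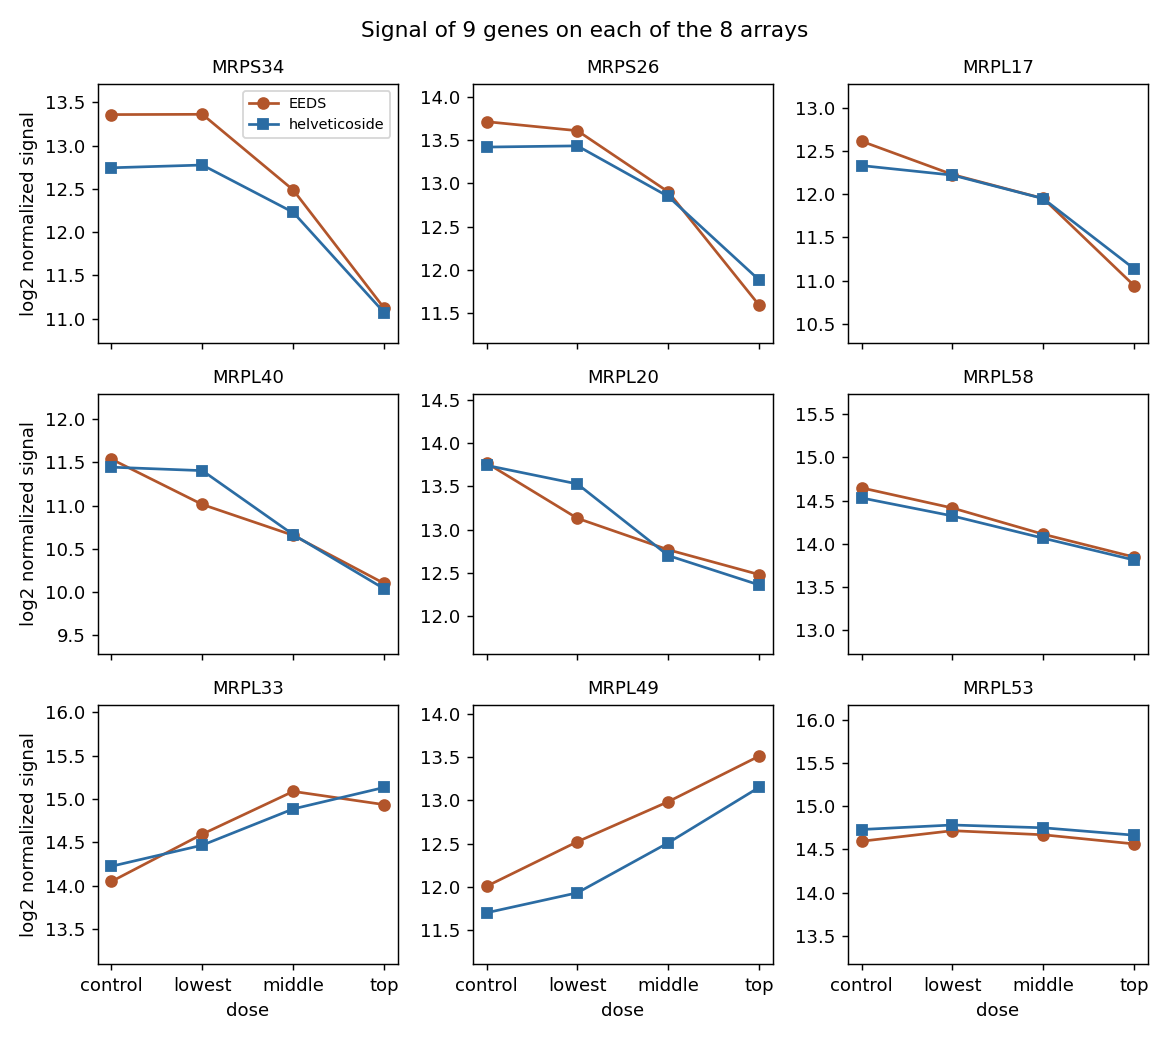
Log2 normalized signal (y axis, 1 point per array, the same span in every panel) of 9 genes against the dose of EEDS (circles) and helveticoside (squares), from vehicle control to top dose. MRPS34 read 13.36 on the EEDS control and 11.12 at 20 μg/mL, MRPL49 rose from 12.01 to 13.51, and MRPL53, shown for a gene with little change, stayed between 14.56 and 14.78 on all 8 arrays.

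Among small subunit genes the lowest log2 ratios at the top doses were those of MRPS34 and MRPS26, which have no bacterial counterpart. MRPS34 read 13.36, 13.36, 12.49 and 11.12 with EEDS and 12.74, 12.78, 12.23 and 11.07 with helveticoside. It stood at control level at the lowest doses and 4.71-fold and 3.19-fold below control at the top ones. The EEDS slope was -0.76 ± 0.18 (adjusted p = 0.0447), and the helveticoside slope of -0.56 did not pass (adjusted p = 0.105).

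MRPS26 followed the same course. It read 13.71, 13.61, 12.90 and 11.59 with EEDS and 13.42, 13.43, 12.85 and 11.88 with helveticoside. At the top doses it was 4.35-fold and 2.90-fold below control, with slopes of -0.71 ± 0.15 (adjusted p = 0.0372) and -0.52 (adjusted p = 0.0874). MRPS33 took this late course too, 2.55-fold and 2.45-fold below control at the top doses, and passed with neither agent (adjusted p = 0.0642 and 0.0742).

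MRPS27, a pentatricopeptide repeat protein of the small subunit, fell with both agents. It read 12.95, 12.57, 12.13 and 11.90 with EEDS and 12.43, 12.40, 12.07 and 11.64 with helveticoside (slopes -0.36 and -0.27, adjusted p = 0.0199 and 0.0402). MRPS16, kin of a bacterial assembly protein of the small subunit, fell as well (slopes -0.24 and -0.13, adjusted p = 0.0144 and 0.0440). It was 1.68-fold and 1.35-fold below control at the top doses, and its second probe gave log2 ratios of -1.07 and -0.51 there, against -0.75 and -0.43 for the probe used. MRPS25 and MRPS5 fell with EEDS alone (adjusted p = 0.0463 and 0.0425), while the differences between their slopes with the agents had unadjusted p = 0.148 and 0.617. MRPS11 missed the threshold with EEDS (adjusted p = 0.0503).

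A smaller set stood above control. MRPL49, a large subunit protein without bacterial counterpart, read 12.01, 12.52, 12.98 and 13.51 with EEDS and 11.70, 11.93, 12.51 and 13.15 with helveticoside. Its signal was higher at every dose than at the one before in both series. The slopes of 0.50 ± 0.05 and 0.49 ± 0.05 passed with adjusted p = 0.0132 and 0.0167, and differed by -0.00 ± 0.08 between the agents. At the top doses MRPL49 stood 2.84-fold and 2.73-fold above control.

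MRPL33 and MRPL32 are both kin of small bacterial large subunit proteins. MRPL33 with both agents and MRPL32 with EEDS lay just beyond the threshold. MRPL33 read 14.05, 14.59, 15.09 and 14.94 with EEDS and 14.22, 14.47, 14.89 and 15.13 with helveticoside (adjusted p = 0.0514 and 0.0599). MRPL32, whose maturation by the mitochondrial m-AAA protease is well known, stood 1.85-fold and 1.51-fold above control at the top doses (adjusted p = 0.0609 and 0.183), and its second probe gave log2 ratios of 0.91 and 0.74. MRPS30 had a log2 ratio of 0.98 at 20 μg/mL EEDS and 0.52 at 60 nM helveticoside (adjusted p = 0.0522 and 0.306). Despite its symbol MRPS30 sits in the large subunit of the mammalian particle.

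MRPS6, MRPL44 and MRPS22 completed the genes highest above control. MRPS6 was 1.56-fold above it at 20 μg/mL EEDS and 1.68-fold at 60 nM helveticoside (adjusted p = 0.0675 and 0.0573). MRPL44 had log2 ratios of 0.80 and 0.62 and MRPS22 of 0.71 and 0.69 at these doses. With 75th-percentile scaling MRPL22, MRPL32, MRPL33, MRPL44, MRPL48, MRPL49, MRPS30 and MRPS6 rose with EEDS and MRPL22, MRPL33, MRPL48, MRPL49, MRPS18C and MRPS6 with helveticoside.

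No protein of the stalk that recruits translation factors passed the test. MRPL11 had log2 ratios of -0.17 and 0.01 at the top doses. MRPL12, which also binds the mitochondrial RNA polymerase, had -0.20 and -0.27. MRPL10 was lower, with -0.83 and -0.73, and did not pass (adjusted p = 0.0650 and 0.122).

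The log2 ratios of the agents ran together gene by gene. Across the 76 genes the log2 ratios at the top doses had a Pearson r of 0.934 (Spearman 0.925), those at the middle doses 0.850 and those at the lowest 0.638. Across all genes well above background on the 8 arrays the value at the top doses was 0.925, so the likeness was not particular to these genes. These are descriptions across genes, which are not independent, and no p is given. The sign at the top doses was the same in 66 of the 76, and the share over all genes was not computed.

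Of the slope differences between agents, 0 of 76 passed an adjusted p of 0.05 in limma, and 0 of all 19046 genes did. At an unadjusted p under 0.05 stood 2 of the 76 and 525 of the 19046. These 2 were MRPL57 (helveticoside minus EEDS slope 0.21, unadjusted p = 0.0460) and MRPS16 (0.11, unadjusted p = 0.0443), each with the slope nearer 0 under helveticoside. The doses of the agents are on different scales and only their steps were matched.

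**Figure D4:**
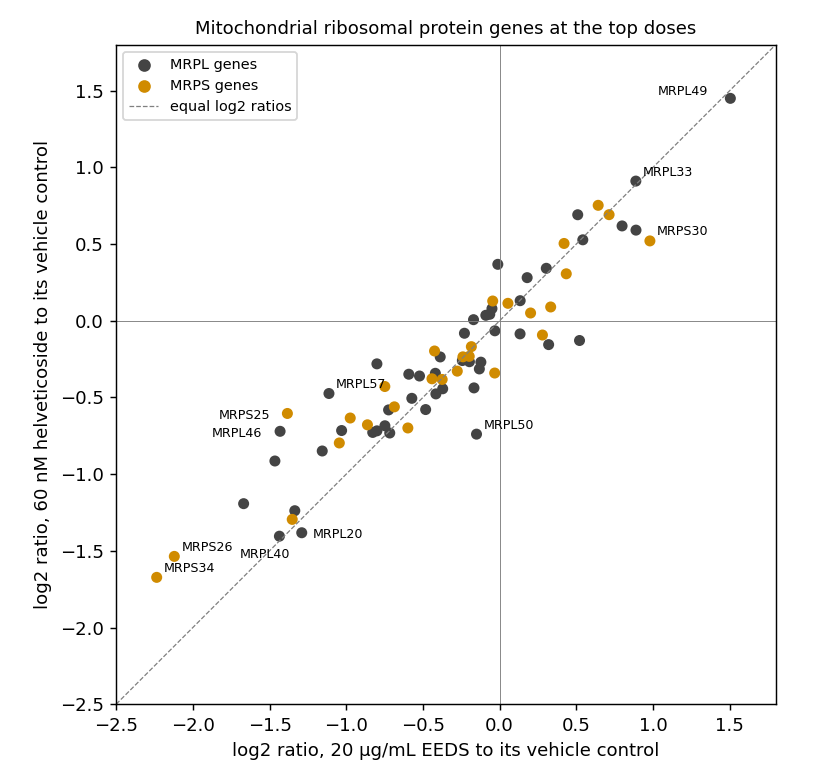
Log2 ratio to the vehicle control at 60 nM helveticoside (y axis) against that at 20 μg/mL EEDS (x axis) for the 76 genes, MRPL genes in grey and MRPS genes in orange, with 1 array behind each value. The points run along the line of equal ratios from MRPS34 (-2.24 and -1.67) to MRPL49 at the upper right, and MRPL50 lies below the line (-0.15 and -0.74).

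Among mitoribosomal proteins under other symbols PTCD3 alone passed the test. PTCD3, a pentatricopeptide repeat protein of the small subunit, was 2.03-fold and 2.31-fold above control at the top doses and rose with both agents (adjusted p = 0.0342 and 0.0261). DAP3, a small subunit protein that binds GTP, had log2 ratios of -0.36 and -0.39 and missed the threshold with both (adjusted p = 0.0552 and 0.0589). CHCHD1, AURKAIP1 and GADD45GIP1 passed with neither. Of these 5 genes 0 fell and 1 rose with each agent. Beside the counts of this list and the next ones stand the shares of all genes. These were 7.86% falling and 7.27% rising with EEDS and 5.79% and 5.46% with helveticoside. Among genes well above background they were 10.7% and 10.2% with EEDS and 7.62% and 7.57% with helveticoside.

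Of 17 factors of mitochondrial translation 2 fell and 1 rose with each agent. TSFM, the exchange factor of the elongation factor TUFM, fell (log2 ratios -1.04 and -0.77 at the top doses, adjusted p = 0.0170 and 0.0290). MTRES1, a factor that rescues stalled mitochondrial ribosomes, fell further (-2.17 and -1.92, adjusted p = 0.0151 and 0.0222). GFM1, the elongation factor that moves the ribosome along the message, rose (1.44 and 1.33, adjusted p = 0.0195 and 0.0261). TUFM itself had -0.05 and -0.15.

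Of 25 assembly factors on the arrays 4 fell and 1 rose with EEDS, and 4 fell and 1 rose with helveticoside. DDX28, a helicase of large subunit assembly, fell with both agents (log2 ratios -1.61 and -1.49 at the top doses, adjusted p = 0.0229 and 0.0326). NOA1, a GTPase of small subunit assembly, fell too (-1.19 and -1.04, adjusted p = 0.0230 and 0.0346), as did the pseudouridine synthase TRUB2 (-0.71 and -0.71, adjusted p = 0.0428 and 0.0488). FASTKD2, an RNA-binding protein of large subunit assembly, rose (0.95 and 0.76, adjusted p = 0.0235 and 0.0447).

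Of 17 mitochondrial tRNA synthetases 5 fell and 2 rose with EEDS and 2 fell and 0 rose with helveticoside. RARS2, which charges the mitochondrial arginine tRNA, was 2.72-fold and 2.75-fold below control at the top doses and fell with each agent (adjusted p = 0.0151 and 0.0181). The median log2 ratio of this list was -0.54 and -0.40 at the top doses. That of 36 complex I subunits was -0.03 and -0.01, with 5 falling and 1 rising with EEDS and 0 falling and 1 rising with helveticoside. That of 81 cytosolic ribosomal proteins was 0.06 and 0.14, with 1 falling and 3 rising with EEDS and 0 falling and 4 rising with helveticoside. With 75th-percentile scaling the cytosolic list turned to -0.15 at 20 μg/mL EEDS, and complex I stood at 0.16 and 0.31. Under that scaling 4 synthetases fell and 2 rose with EEDS and 2 fell and 1 rose with helveticoside, 5 assembly factors fell and 2 rose with EEDS and 3 fell and 2 rose with helveticoside, and 1 translation factor fell and 1 rose with each agent. Of complex I 2 fell with EEDS and 0 with helveticoside, 0 rose with either, and 0 cytosolic ribosomal proteins were called in either direction. With this scaling 11.5% of all genes fell and 9.49% rose with EEDS, and 6.44% fell and 6.58% rose with helveticoside.

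Several of these genes share a start region with another gene on the other strand. Within 1000 bases between starts, 20 such pairs with a protein-coding partner on the arrays held 21 of the 76 genes, and in 17 pairs the partner was well above background on all 8 arrays. The log2 ratios of the 2 partners had the same sign in 8 of these 17 pairs at 20 μg/mL EEDS and in 12 at 60 nM helveticoside. MRPL49 and FAU, 49 bases apart, were both above control at the top doses, MRPL49 by 2.84-fold and 2.73-fold and FAU, which encodes a cytosolic ribosomal protein, at log2 ratios of 0.42 and 0.28 (adjusted p = 0.0681 and 0.147 for FAU). MRPL18 and TCP1, a subunit of a cytosolic chaperonin, lie 210 bases apart and were both lower, TCP1 at -1.16 and -0.78 (adjusted p = 0.129 and 0.209).

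Other pairs went apart. MRPL27 had 0.13 at both top doses while EME1, a subunit of a DNA repair nuclease that starts 45 bases away, stood at -2.26 and -2.42 and fell with both agents (adjusted p = 0.0132 and 0.0164). MRPS7 had -0.37 and -0.38 while GGA3, an adaptor of vesicle traffic, stood at 1.10 and 0.85 and rose (adjusted p = 0.0237 and 0.0359). MRPL46 and MRPS11, 320 bases apart and both mitoribosomal, instead went the same way. Both were lower at the top doses, at -1.43 and -0.72 for MRPL46 and -0.97 and -0.63 for MRPS11.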

How the data were processed

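Total RNA of A549 cells, with a RIN above 7, was pooled from 3 cultures per dose and hybridised by the authors to one-colour Agilent arrays. The authors deposited Feature Extraction intensity values per spot and a table of processed intensity values, quantile-normalized within each series. No column of per-sample values lacked a sample.

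After removal of control and outlier spots, the mean processed signal of each probe was taken (22 of 34127 probes had only outlier spots on an array and were dropped). Quantile normalization across the 8 arrays and a log2 transform followed, with undetected probes raised to the lowest detected value of their array. Genes were kept in a series where the scanned signal reached 1.4 times the local background on at least 1 array, and the brightest probe stood for a gene (24812 probes with 1 gene of GRCh38.p14, 12 members with over 1 probe). The trend model gave each series its own intercept and slope, estimated in R 4.3.3 by limma 3.58.1, with a mean-variance trend, robust moderation (which uses statmod 1.5.0) and Benjamini-Hochberg adjustment. Other values came from Python 3.11.15, numpy 2.4.6, pandas 2.3.3 and matplotlib 3.10.9. On a simulated EEDS trend with 200 changed genes among 19056, the fit called 108, of which 104 were changed, and found 82% of slopes of 1 and 22% of slopes of 0.5 per step. Nothing in the sources used here gives slide or scan data, so batches other than the series were not examined. Precision is limited by having so few arrays, and p-values measure only the spread of 8 pooled samples around the fitted trends.

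Members called with an agent were named (the 10 largest slopes where over 15 were called), as were the 5 largest rises and falls at each top dose, members whose well-measured probes opposed each other by over 1.5-fold (0 did), and genes of the mitochondrial lists called with both agents. Other members are named to complete a list or pair, and 1 gene that the rule names is not reported here. The members and lists were chosen with earlier results of these data known. Alternatives were 75th-percentile scaling, normexp on the median signal with an offset of 50, the deposited processed values, a filter on genes well above background, no filter, the mean of all probes, each series alone, fits without a dose, the other control and, added after seeing the data, each array left out.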

Additional observations from a re-analysis of the deposited data

Results flagged for a closer look

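In 3 of the 76 genes every EEDS array stood on one side of its vehicle control and every helveticoside array on the other. Only the 76 genes were searched for this, so the count cannot be set against a share of all genes. MRPL1 was above control at all EEDS doses (log2 ratios 0.23, 0.48 and 0.52) and below it at all helveticoside doses (-0.51, -0.39 and -0.13), and its helveticoside slope minus its EEDS slope was -0.208. MRPL47 was above control with EEDS (0.14, 0.09 and 0.32) and below it with helveticoside (-0.03, -0.26 and -0.16), a slope difference of -0.160. MRPL11 was below control with EEDS (-0.09, -0.02 and -0.17) and above it with helveticoside (0.01, 0.07 and 0.01), a slope difference of 0.0516. None of these differences passed in limma, with adjusted p = 1 for each and unadjusted p = 0.176, 0.0593 and 0.385 in the order given. The log2 level of MRPL1 was 7.76 on the helveticoside control and 7.39 on the EEDS control, and its 6 treated arrays lay between 7.25 and 7.91.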

How the results depend on the processing

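No slope of a member picked by the naming rule and neither top-dose median of the 76 genes changed sign under the alternatives. This does not cover members named outside that rule. The median EEDS slope of members with a bacterial counterpart turned from -0.071 to 0.0029 with 75th-percentile scaling. Under 75th-percentile scaling, however, the helveticoside calls turned from mostly falling to mostly rising, and at 20 μg/mL EEDS the median turned from 0.06 to -0.15 for cytosolic ribosomal proteins and from -0.03 to 0.16 for complex I. With 75th-percentile scaling the falling calls were 10 with EEDS and 2 with helveticoside (17 and 10 as reported), the rising calls 8 and 6 (1 and 1), and the median log2 ratio at 60 nM helveticoside -0.036 (-0.30). Rising calls with EEDS were 4 with normexp, 5 with the deposited values, 5 among genes well above background and 2 with the mean of all probes. Rising calls with helveticoside were 3, 2 and 3 in the first 3 of these settings, and falling calls 16 among genes well above background, where fewer genes were tested. Shares of all genes called were computed only for the main fit and for 75th-percentile scaling. Each series fitted alone, and fits without the lowest, middle or top doses, called 0 genes in either direction. At an unadjusted limma p under 0.05 these 4 fits held 23, 25, 24 and 12 falling and 6, 8, 5 and 6 rising genes with EEDS, and 22, 18, 20 and 7 falling and 5, 3, 4 and 5 rising with helveticoside. They have fewer arrays and residual degrees of freedom (2 for each series alone). Leaving out 1 array gave 0 to 14 falling and 0 to 2 rising with EEDS and 0 to 4 falling and 0 to 3 rising with helveticoside. No paired analysis was possible because each group had 1 array and the labels number no replicates. The self-test found 22% of slopes of 0.5, with 200 changed genes drawn from all genes. It does not give the share that would be found among the 76 genes, where smaller slopes were called. A missed call still does not show that a gene was unchanged.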

Other observations

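Few regulators and stress genes of mitochondria passed the test. Beside their counts stand 7.86% of all genes falling and 7.27% rising with EEDS, and 5.79% and 5.46% with helveticoside. With 75th-percentile scaling these shares were 11.5% and 9.49% with EEDS and 6.44% and 6.58% with helveticoside. Of 9 biogenesis regulators 0 were called with either agent, and with 75th-percentile scaling 2 rose with EEDS and 0 with helveticoside. PPARGC1A, counted among the 9, was well above background on 0 of 8 arrays. GABPB1, a subunit of the ETS factor GABP, stood at a log2 ratio of 2.34 at 20 μg/mL EEDS and 1.39 at 60 nM helveticoside (adjusted p = 0.0822 and 0.254). NRF1, well above background on 6 of 8 arrays, stood at 1.35 and 0.87 (adjusted p = 0.0757 and 0.268) and GABPA at 0.33 and 0.07. Of 9 genes of mitochondrial DNA transcription and replication TFAM rose with EEDS (1.59, adjusted p = 0.0450) and stood at 0.70 with helveticoside (adjusted p = 0.261).

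Of 11 mitochondrial stress genes 0 fell and 1 rose with each agent, and with 75th-percentile scaling 1 fell and 4 rose with EEDS and 1 fell and 3 rose with helveticoside. DDIT3, a transcription factor of the integrated stress response, had log2 ratios of 1.32, 2.50 and 4.79 along the EEDS doses and rose (adjusted p = 0.0356), and had -0.69, 2.57 and 3.02 along those of helveticoside (adjusted p = 0.0709). It was well above background on 7 of 8 arrays. AFG3L2, a subunit of the m-AAA protease, rose with helveticoside (1.18 at 60 nM, adjusted p = 0.0474) and stood at 0.88 at 20 μg/mL EEDS (adjusted p = 0.0847). The chaperonin HSPD1 stood at -0.94 and -1.13 (adjusted p = 0.0717 and 0.0606). The part of any of these genes in the values of the mitochondrial ribosomal proteins was not tested.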
